A study of Homo sapiens with 12 samples.

Results

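The 10 alpha- and beta-tubulin genes read here were the entries of the gene count table whose Ensembl identifiers carry the symbols TUBA1A, TUBA1B, TUBA1C and TUBA4A (4 alpha genes) and TUBB, TUBB2A, TUBB2B, TUBB3, TUBB4B and TUBB6 (6 beta genes). They were 10 of the 63677 genes listed, and all 10 were among the 17730 genes with enough reads to be tested. The cells were HCT116, an epithelial line from a human colon carcinoma, and libraries of their polyadenylated RNA, made with a stranded kit, were sequenced 72 h after transfection. There were 6 groups of 2 libraries: siTotal1 and siTotal2 (different siRNAs against all transcripts of NFYA), siLong1 and siLong2 (different siRNAs against only those NFYA transcripts whose 3′ untranslated region is longest), mock (transfection reagent with no siRNA) and siControl (a non-targeting siRNA). The 5 siRNA groups received 62.5 nM, and all groups came from the same line and were seeded at 25000 cells per well. The study asked how loss of all NFYA transcripts and loss of the long isoform alone change gene expression. The submitters describe each pair as biological duplicates, and the p-values below measure the spread within such pairs.

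Alpha- and beta-tubulin pair into the dimers from which microtubules are built, and each exists as several isotypes encoded by separate genes with nearly the same coding sequence. Isotype use differs between tissues: TUBB3 and TUBB2B are known as neuronal isotypes, TUBA1A is prominent in developing neurons, and TUBA1B, TUBA1C, TUBB and TUBB4B are widespread in dividing cells. Cells also adjust tubulin mRNA to the amount of unpolymerized dimer, a process called autoregulation in which TTC5 recognises the first residues of a tubulin chain as it leaves the ribosome and the mRNA is then degraded. NFYA is the subunit through which the transcription factor NF-Y recognises CCAAT boxes in promoters.

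The coding starts are shown because they hold the codons for the residues that TTC5 recognises and because they show how alike the isotypes are. The first 30 coding bases of the annotated GENCODE 29 transcripts are given 5′ to 3′, with the first 4 codons in capitals.
TUBA1A: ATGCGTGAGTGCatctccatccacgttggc
TUBA1B: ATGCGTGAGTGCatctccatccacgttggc
TUBA1C: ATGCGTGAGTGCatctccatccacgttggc
TUBA4A: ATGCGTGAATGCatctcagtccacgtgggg
TUBB: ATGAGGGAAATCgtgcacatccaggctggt
TUBB2A: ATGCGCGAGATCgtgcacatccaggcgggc
TUBB2B: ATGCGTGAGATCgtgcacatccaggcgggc
TUBB4B: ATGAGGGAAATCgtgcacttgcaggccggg
The first 3 lines are identical, so these 30 bases alone do not tell the 3 genes apart, though longer stretches can differ. Over the whole coding sequence TUBA1A was 97.2% identical to TUBA1B and 95.9% identical to TUBA1C, and TUBA4A was 84.4% to 85.7% identical to the other alpha members. TUBB2A and TUBB2B were 98.1% identical, and the 15 pairs of beta members ranged from 80.9% to 98.1%. Identity between an alpha and a beta member was 52.2% to 53.9%.

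The promoters were read for CCAAT, the box NF-Y binds, because NFYA was the gene knocked down. The letters CCAAT were searched on both strands (ATTGG on the other strand) in RefSeq windows of GRCh38.p14 that run from 250 bases before to 50 bases after each annotated start. The motif was in 9 of the 15 windows of the members, and in at least 1 window of 7 of the 10 members, against 34.6% of all 35116 windows and 39.7% of all 27305 genes in the table. TUBA1B, TUBA4A and TUBB2A had no match in their windows. The single TUBB4B window held 3 matches and the single TUBA1A window held 2, while TUBA1C had matches before more than 1 annotated start. The stretches below are from the 4 matched members that were called in the same direction against both controls in siLong, 1 of the TUBA1C stretches among them. The motif is in capitals with 12 bases on each side, written along the strand of the gene, and distances run from its centre; a match is a run of letters and not a measured binding site.
TUBA1A (chr12:49189189-49189217, minus strand, 123 bases before the start): acgtcgcttgcaCCAATcaccagtctcct
TUBA1A (chr12:49189152-49189180, minus strand, 86 bases before the start): ttctctgggcagATTGGgggtctggacca
TUBA1C (chr12:49264910-49264938, plus strand, 158 bases before the start): cttttgaatccgCCAATcagcgccgcgcg
TUBB3 (chr16:89923251-89923279, plus strand, 77 bases before the start): cggcgcctcccgATTGGccacccgcggtg
TUBB4B (chr9:137241043-137241071, plus strand, 230 bases before the start): catttgaaacacCCAATggacggagcact
TUBB4B (chr9:137241109-137241137, plus strand, 164 bases before the start): ggctgcggctgaCCAATaaagaccaaact
TUBB4B (chr9:137241172-137241200, plus strand, 101 bases before the start): acgggggcaaggCCAATcaaacgagggag
Among the 7 members with a match, TUBA1A and TUBB3 were higher and TUBA1C and TUBB4B lower in the siLong comparisons given below. TUBB, TUBB2B and TUBB6, which also had a match, were not called in the same direction against both controls there. Of the members with no match, TUBA1B and TUBA4A were lower there, and TUBB2A was called in opposite directions against the controls.

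Several members lie close together or overlap other genes, which bears on how far their reads can be separated. On GRCh38 (GENCODE 29), TUBA1B lies at chr12:49127782-49131397 on the minus strand, TUBA1A at chr12:49184796-49189324 on the minus strand and TUBA1C at chr12:49188736-49274603 on the plus strand, so exons of TUBA1A and TUBA1C overlap on opposite strands. TUBB2A at chr6:3153669-3157526 and TUBB2B at chr6:3224261-3231730 are neighbours on the minus strand, and TUBB lies on the same chromosome at chr6:30720201-30725426 on the plus strand. TUBA4A at chr2:219249711-219278170 overlaps STK16 and TUBB6 at chr18:12307669-12344320 overlaps AFG3L2, in both cases on the opposite strand. Exons of TUBB2B overlap those of PSMG4, also on the opposite strand. TUBB3 lies at chr16:89921392-89938761 and TUBB4B at chr9:137241213-137243707, both on the plus strand. Exons of TUBB3 overlap those of the protein-coding entry ENSG00000198211 on the same strand, which had 0 to 1 reads per library. Of the 50-base stretches of TUBB3 exons, 33.4% were found also in that entry. The share of 50-base stretches of a member's exons found also in another gene, on either strand, was 58.7% for TUBB2A, 53.8% for TUBB2B and 38.7% for TUBA1B, and it was 11% for TUBB4B. Whether reads were counted by strand is not stated in the sources used here, so the values of overlapping and near-identical members are uncertain to that extent.

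Library totals ran from 35604197 to 49746637 reads. NFYA, the targeted gene, had 47.9 and 46.8 CPM in siTotal1 and 46 and 46.2 CPM in siTotal2, and siLong1 had 47.7 and 46.5 CPM. The libraries labelled siLong2 held 69.7 and 70.1 CPM of NFYA, against 55.2 and 59.1 CPM in mock and 57.4 and 57.5 CPM in siControl. CPM is a gene's read count scaled to the size of its library, with TMM factors. Fold changes come from edgeR's quasi-likelihood test with Benjamini-Hochberg adjustment over all 17730 genes, and a gene was called at an adjusted p under 0.05. The gene count of NFYA was therefore lower in 3 of the siRNA groups and higher, by 0.28 log2 (adjusted p = 5.9e-06 in edgeR's test), in the libraries labelled siLong2 than in siControl; it does not separate the isoforms. Of 7 epithelial markers 6 reached 1 CPM in some library, with KRT8 between 1475 and 2697 CPM, and none of 5 blood markers did. The summed level of the epithelial markers was 4957 to 5444 CPM in the 4 siLong libraries, in which several tubulins were lower, against 3259 to 3755 CPM in the other 8, and its part in the tubulin values was not tested. Of 6 fibroblast markers 4 reached 1 CPM, with COL1A1 at 25.9 to 41.7 CPM and a sum of 26.3 to 45.1 CPM that overlapped between siLong and the other groups. Of 6 neural markers only SYT1, at 59.5 to 84.6 CPM, and SNAP25, at 0.131 to 1.99 CPM, reached 1 CPM. RBFOX3, NEFM, DCX and GFAP stayed at 0.277 CPM or lower. In such bulk samples fewer cells of a type and less RNA per cell cannot be told apart.

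Per kilobase of annotated exon, TUBB was the most abundant member, with a mean of 630.4 CPM per kb over the 12 libraries, and TUBA1B followed with 451 CPM per kb. TUBB4B averaged 318 CPM per kb and TUBA1C 148 CPM per kb, and these 4 widespread isotypes stood apart from the others in every library. TUBB6, TUBB2A, TUBA1A and TUBA4A lay between 17.9 and 36.5 CPM per kb on average. The neuronal isotypes TUBB3 (1.92 CPM per kb) and TUBB2B (0.718 CPM per kb) were lowest, and the part of the same-strand overlap in the TUBB3 value was not tested. The order depends on the length used: with the longest coding transcript of each gene in place of all its exons, TUBA1B came first with 991 CPM per kb and TUBB was second with 729 CPM per kb.

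**Figure D1:**
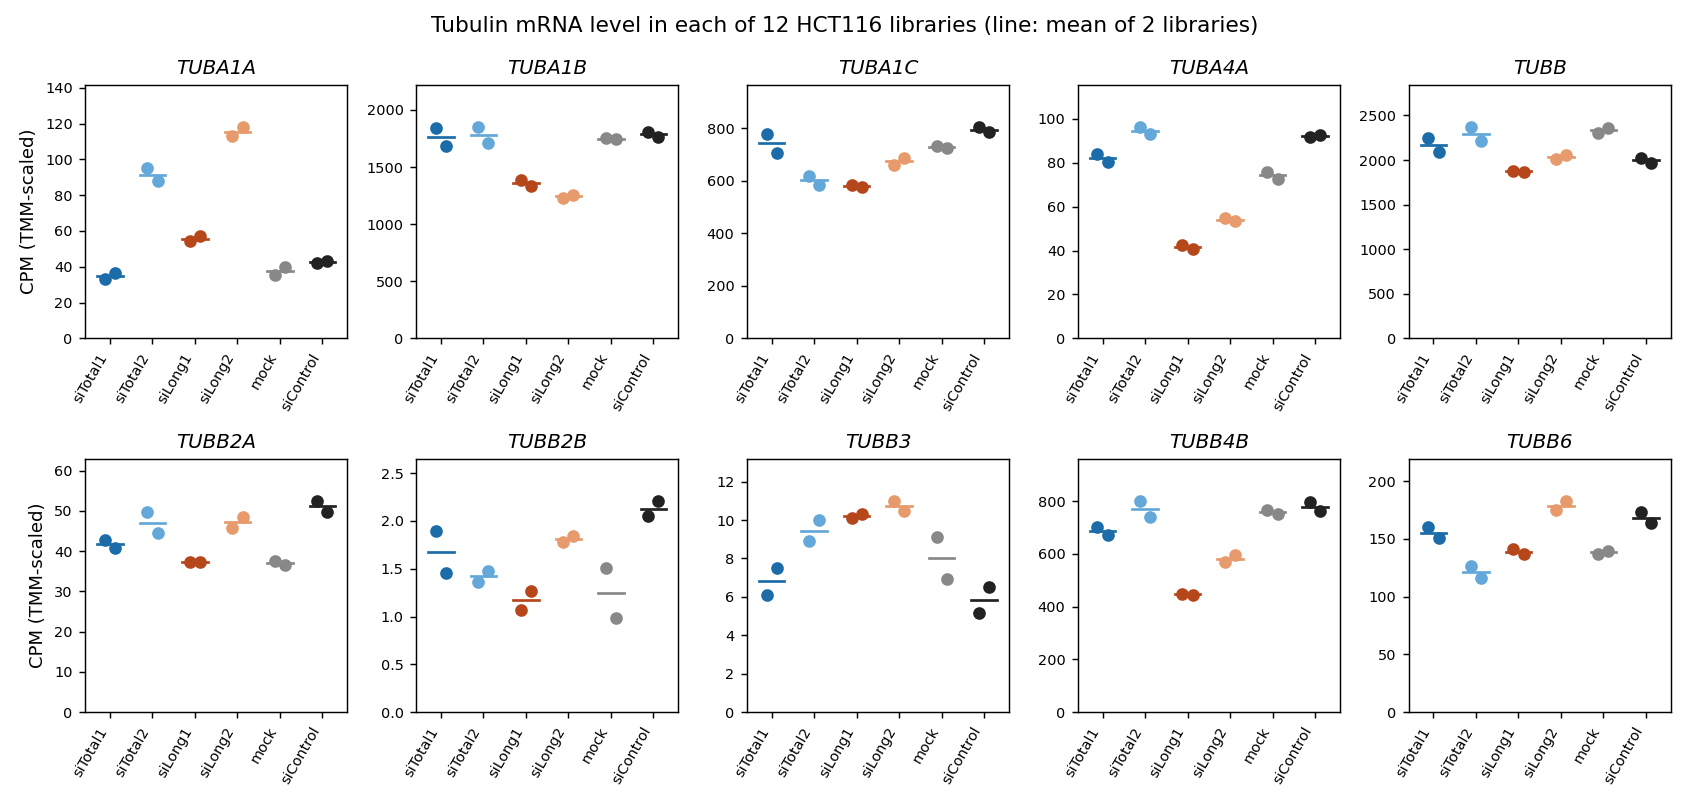
TMM-scaled CPM (vertical axes, each from 0) of the 10 tubulin genes in the 12 libraries, by group along the horizontal axes. Points are libraries and lines are the means of 2 libraries. TUBA1A is highest in the libraries labelled siLong2 (113 and 118 CPM), and TUBA4A and TUBB4B are lowest in siLong1.

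Every member differed somewhere among the 6 groups: the test of any difference called 10 of 10, where 81.1% of all tested genes were called. Measured as the ratio of the highest to the lowest group mean, TUBA1A varied most (3.32) and TUBB least (1.24). TUBA4A followed with 2.27, then TUBB3 with 1.84, TUBB2B with 1.82 and TUBB4B with 1.75. The other 4 members lay between 1.37 and 1.48.

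TUBA1A, the alpha isotype of developing neurons, differed most between groups. It had 33 and 36.6 CPM in siTotal1, 95.1 and 87.7 CPM in siTotal2, 54.2 and 56.9 CPM in siLong1 and 113 and 118 CPM in the libraries labelled siLong2, against 35.1 and 39.6 CPM in mock and 42 and 43.2 CPM in siControl. All libraries of siTotal2, siLong1 and siLong2 lay above all mock and siControl libraries, whereas both siTotal1 libraries lay below both siControl libraries and overlapped mock. Against siControl, edgeR's test gave log2 fold changes of 1.10 (SE 0.06, adjusted p = 1.2e-16) for siTotal2, 0.38 (SE 0.06, adjusted p = 1.6e-06) for siLong1 and 1.44 (SE 0.06, adjusted p = 6.3e-20) for siLong2 as labelled. For siTotal1 it gave -0.29 (SE 0.06, adjusted p = 2.3e-04), the opposite direction from the other siRNA to the same target. The mean of the siTotal groups, 0.41 log2 above siControl (SE 0.05, adjusted p = 9.6e-08), therefore describes neither siTotal group. The mean of the siLong groups was 0.91 log2 above siControl (SE 0.05, adjusted p = 5.3e-16) and 1.10 log2 above mock (adjusted p = 8.1e-18). TUBA1C, whose exons overlap those of TUBA1A, had 20718 to 36963 reads per library where TUBA1A had 1187 to 4167; its part in these values was not tested.

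TUBA4A, an alpha isotype best known from platelets, brain and muscle, was lower with both siLong siRNAs. It had 84 and 80.2 CPM in siTotal1, 96.2 and 93 CPM in siTotal2, 42.7 and 40.7 CPM in siLong1 and 54.7 and 53.3 CPM in the libraries labelled siLong2, against 75.9 and 72.7 CPM in mock and 91.5 and 92.5 CPM in siControl. The 4 siLong libraries were the lowest of the 12, and they did not overlap either control. TUBA4A fell by 0.96 log2 in siLong against siControl (SE 0.04, adjusted p = 4.8e-21 in edgeR's test) and by 0.65 log2 against mock (adjusted p = 6.6e-16). In siTotal it stood 0.06 log2 below siControl, which was not called (adjusted p = 0.21), and 0.25 log2 above mock, which was (adjusted p = 7.6e-06). STK16, the gene on the other strand, was also lower in siLong than in siControl, by a log2 fold change of -0.39 (adjusted p = 7.7e-08), with 741 to 1401 reads per library where TUBA4A had 1513 to 3826; its part in the TUBA4A value was not tested.

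TUBA1B, the most abundant alpha isotype, also fell with the siLong siRNAs. It had 1842 and 1681 CPM in siTotal1, 1849 and 1706 CPM in siTotal2, 1384 and 1336 CPM in siLong1 and 1231 and 1257 CPM in the libraries labelled siLong2, against 1750.1 and 1742 CPM in mock and 1807 and 1767 CPM in siControl. The siLong libraries lay below the other 8, and the siTotal libraries lay on both sides of the controls. The log2 fold change in siLong was -0.46 against siControl (SE 0.04, adjusted p = 1.4e-12) and -0.43 against mock (adjusted p = 1.3e-11). In siTotal it was -0.01 against siControl (adjusted p = 0.8) and 0.02 against mock (adjusted p = 0.76), and neither was called.

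TUBA1C, the third alpha member of the chromosome 12 cluster, was lower in all siLong libraries and in siTotal2. It had 779.9 and 707 CPM in siTotal1, 619 and 586 CPM in siTotal2, 585 and 575 CPM in siLong1 and 662 and 689 CPM in the libraries labelled siLong2, against 733 and 725 CPM in mock and 805 and 785 CPM in siControl. The siTotal1 libraries overlapped mock and lay below both siControl libraries, and the libraries of siTotal2, siLong1 and siLong2 lay below both controls. The log2 fold change against siControl was -0.35 in siLong (adjusted p = 5.4e-10) and -0.25 in siTotal (adjusted p = 8.3e-07). Against mock it was -0.22 in siLong (adjusted p = 5.6e-06) and -0.12 in siTotal (adjusted p = 0.01), and the siTotal value was no longer called without mock replicate 1 (adjusted p = 0.097).

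TUBB, the most abundant beta isotype, varied least, and siLong1 was the only group whose libraries all lay below both controls. It had 2253 and 2089 CPM in siTotal1, 2369 and 2219 CPM in siTotal2, 1882 and 1869 CPM in siLong1 and 2011 and 2062 CPM in the libraries labelled siLong2, against 2299 and 2365 CPM in mock and 2021 and 1970.5 CPM in siControl. Mock exceeded siControl here, by 0.22 log2 (adjusted p = 8.1e-05 in edgeR's test). The siLong mean was 0.25 log2 below mock (adjusted p = 5.8e-07) and 0.03 log2 below siControl, which was not called (adjusted p = 0.54). The siTotal mean was 0.16 log2 above siControl (adjusted p = 7.4e-04), a call that was lost without siControl replicate 2 (0.13 log2, adjusted p = 0.059), and it did not pass the test against mock (log2 fold change -0.06).

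TUBB4B, a beta isotype of dividing and ciliated cells, was the beta member that fell most with the siLong siRNAs. It had 703 and 672 CPM in siTotal1, 801 and 739.9 CPM in siTotal2, 447 and 445 CPM in siLong1 and 568 and 595 CPM in the libraries labelled siLong2, against 767 and 752 CPM in mock and 797 and 762 CPM in siControl. All 4 siLong libraries were below all 8 others. TUBB4B fell by 0.61 log2 in siLong against siControl (SE 0.04, adjusted p = 8.0e-17) and by 0.58 log2 against mock (adjusted p = 7.5e-16). With each siRNA set against siControl, the log2 fold change was -0.81 for siLong1 (adjusted p = 4.7e-18) and -0.42 for siLong2 as labelled (adjusted p = 1.2e-10). The siTotal mean was 0.10 log2 below siControl (adjusted p = 0.027), and this was lost without siControl replicate 1 (adjusted p = 0.24) or without siTotal2 replicate 2 (adjusted p = 0.093).

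TUBB3, the neuronal class III isotype, was present at low levels and was higher with the siLong siRNAs. It had 6.11 and 7.51 CPM in siTotal1, 8.89 and 9.98 CPM in siTotal2, 10.1 and 10.3 CPM in siLong1 and 11 and 10.5 CPM in the libraries labelled siLong2, against 9.1 and 6.93 CPM in mock and 5.15 and 6.52 CPM in siControl. The siLong libraries were the highest 4, while the siTotal1 libraries overlapped both controls. TUBB3 rose by 0.85 log2 in siLong against siControl (SE 0.11, adjusted p = 6.4e-07) and by 0.38 log2 against mock (SE 0.10, adjusted p = 0.0037). The value against mock dropped to 0.20 log2 and was not called without mock replicate 2 (adjusted p = 0.16). The rise of 0.46 log2 in siTotal against siControl (adjusted p = 0.0022) was lost without siControl replicate 1 (0.28 log2, adjusted p = 0.1). Depth behind these values was 196 to 459 reads per library.

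TUBB6, a beta isotype of non-neuronal cells, moved in different directions with different siRNAs. It had 160.2 and 151 CPM in siTotal1, 127 and 116 CPM in siTotal2, 141 and 137 CPM in siLong1 and 175 and 183 CPM in the libraries labelled siLong2, against 137 and 139.9 CPM in mock and 173 and 164 CPM in siControl. The siTotal2 libraries were the lowest of all, and the libraries labelled siLong2 the highest. The siTotal mean was 0.29 log2 below siControl (adjusted p = 7.4e-08), with siTotal2 at -0.48 (adjusted p = 5.6e-11), and the call was lost with mock and siControl as 1 control group (-0.16, adjusted p = 0.17). Against mock the siTotal mean was at -0.01 (adjusted p = 0.88), with siTotal1 at 0.17 (adjusted p = 0.0021) and siTotal2 at -0.19 (adjusted p = 0.0014). The siLong mean was 0.19 log2 above mock (adjusted p = 1.0e-04) and 0.09 log2 below siControl (adjusted p = 0.041), and the second was not called without siControl replicate 1, siLong1 replicate 2 or siLong2 replicate 1 (adjusted p = 0.36, 0.088 and 0.12), nor with median-ratio factors (adjusted p = 0.081) or in DESeq2 (adjusted p = 0.13). AFG3L2 on the opposite strand had 3799 to 7149 reads where TUBB6 had 4525 to 6895; its log2 fold change in siTotal against siControl was -0.14 (adjusted p = 0.0024), and its part was not tested.

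TUBB2A and TUBB2B, near-identical neighbours that are both prominent in brain, share more than any other pair here and are uncertain. TUBB2A had 42.7 and 40.7 CPM in siTotal1, 49.7 and 44.4 CPM in siTotal2, 37.4 and 37.2 CPM in siLong1 and 45.8 and 48.5 CPM in the libraries labelled siLong2, against 37.5 and 36.5 CPM in mock and 52.5 and 49.8 CPM in siControl. Both siControl libraries were above all other libraries, and both mock libraries were near the bottom. TUBB2A was accordingly called in opposite directions against the controls: log2 fold changes were -0.21 in siTotal and -0.29 in siLong against siControl (adjusted p = 5.4e-04 and 4.4e-06), and 0.26 and 0.18 against mock (adjusted p = 9.1e-05 and 0.0026). TUBB2B had 38 to 82 reads per library, and its CPM was 1.89 and 1.46 in siTotal1, 1.36 and 1.48 in siTotal2, 1.07 and 1.27 in siLong1 and 1.78 and 1.84 in the libraries labelled siLong2, against 1.51 and 0.987 in mock and 2.05 and 2.21 in siControl. It was highest in siControl and did not pass the test against mock, with log2 fold changes of 0.29 in siTotal and 0.21 in siLong (adjusted p = 0.28 and 0.4). Its value of -0.54 in siLong against siControl (adjusted p = 0.011) was lost without siControl replicate 2 (-0.50, adjusted p = 0.089) and in DESeq2 (adjusted p = 0.08). Its value of -0.46 in siTotal against siControl (adjusted p = 0.034) was lost in DESeq2 (adjusted p = 0.15) and without siControl replicate 1, siControl replicate 2, siTotal1 replicate 2 or siTotal2 replicate 1 (adjusted p = 0.074, 0.18, 0.1 and 0.071). PSMG4 on the opposite strand had 404 to 804 reads per library. Its log2 fold change was 0.38 in mock against siControl (adjusted p = 3.9e-04 in edgeR's test). Against siControl it was 0.10 in siTotal and 0.08 in siLong, neither called. The part of PSMG4 in the TUBB2B values was not tested.

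**Figure D2:**
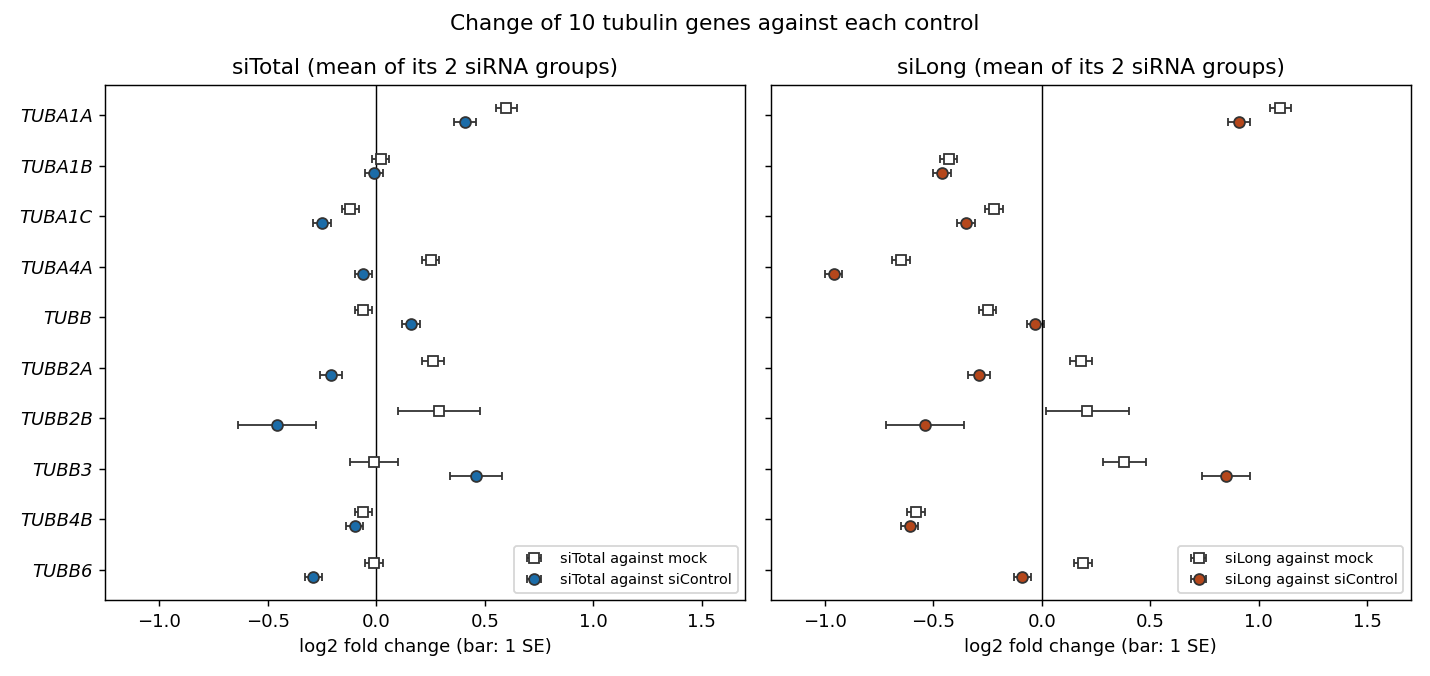
Log2 fold change (horizontal axis, bars 1 SE from edgeR's fit) of each tubulin gene for the siTotal mean (left) and the siLong mean (right), against mock (open squares) and against siControl (filled circles). In siLong, TUBA1A (1.10 and 0.91) and TUBA4A (-0.65 and -0.96) lie on the same side of 0 against both controls, whereas TUBB2A and TUBB6 change sides.

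Counted over the family, siTotal against siControl called 8 of the 10 members, 3 higher and 5 lower, where 44.2% of all tested genes were called (22% higher and 22.2% lower) and 61.7% of the 6336 genes with an average log2 CPM of at least 5. The members' median log2 fold change was -0.08, beside 0.002 over all tested genes. In siLong against siControl 9 members were called, 2 higher and 7 lower, where 53.5% of all genes (25.1% higher and 28.4% lower) and 71.1% of the abundant genes were called, and the median was -0.32 beside -0.012. The count for siTotal fell to 5 without siControl replicate 1. These comparisons share the siControl libraries, as the next 2 share mock. Against mock, siTotal called 4 members (TUBA1A, TUBA4A and TUBB2A higher, TUBA1C lower), where 30.8% of genes were called (16.6% higher and 14.2% lower). In siLong against mock 9 were called, 4 higher and 5 lower, where 50.8% of genes were called (24.4% higher and 26.4% lower). The median against mock was 0.00 in siTotal beside 0.003, and -0.02 in siLong beside -0.015. Since so many genes were called in each comparison, the count of members called says little by itself.

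Taken siRNA by siRNA, the members called against siControl were 6 in siTotal1 (43.4% of all tested genes), 6 in siTotal2 (45.1%), 9 in siLong1 (54.5%) and 6 in those labelled siLong2 (52.7%). Against mock they were 4 in siTotal1 (40.9% of genes), 5 in siTotal2 (26.7%), 7 in siLong1 (52%) and 10 in those labelled siLong2 (50.3%). Between the siRNAs to one target, siTotal1 and siTotal2 differed in 7 members, where 43.9% of genes differed, and siLong1 and siLong2 in 9, where 53.7% did; TUBA1A differed most in both pairs.

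A member called in the same direction against both controls does not owe its direction to 1 of them. In siLong 6 members met this, where 31.6% of tested genes did: TUBA1A and TUBB3 were higher, and TUBA1B, TUBA1C, TUBA4A and TUBB4B were lower. The same 6 met it in siLong1 alone, where 35.5% of genes did, and in the libraries labelled siLong2 alone, where 33.6% did. Against mock, 3 of these single-siRNA calls were fragile. TUBA1C in the libraries labelled siLong2 was lost in DESeq2 (adjusted p = 0.093), with median-ratio factors (adjusted p = 0.091) and without mock replicate 1, mock replicate 2 or siLong2 replicate 1 (adjusted p = 0.17, 0.07 and 0.24). TUBB3 in siLong1 was lost without mock replicate 2, siLong1 replicate 1 or siLong1 replicate 2 (adjusted p = 0.31, 0.087 and 0.12). TUBB3 in the libraries labelled siLong2 was lost without mock replicate 2 or siLong2 replicate 1 (adjusted p = 0.12 and 0.061). In siTotal 2 members met it, TUBA1A higher and TUBA1C lower, where 14.2% of genes did. In siTotal1 TUBB4B alone met it, as a fall, where 22.2% did. In siTotal2 TUBA1A was higher and TUBA1C and TUBB6 were lower, where 15.8% did. Against mock, the TUBB4B call in siTotal1 was lost without mock replicate 1 (adjusted p = 0.053), and the TUBB6 call in siTotal2 without siTotal2 replicate 2 (adjusted p = 0.066). TUBB2A in both means and TUBB6 in siLong were called in opposite directions against the controls. In a fit on the summed reads of each group, in which every siRNA sequence counted as 1 replicate and mock and siControl formed the control arm, edgeR called 0 members in siTotal against controls, in siLong against controls and in siTotal against siLong. At an unadjusted p under 0.05 these fits held 0, 4 (TUBA1A, TUBA1B, TUBA4A and TUBB4B) and 3 (TUBA1B, TUBA4A and TUBB4B) members. Of all 19088 genes, 423, 2009 and 1716 were under the same unadjusted threshold. At the adjusted threshold these fits called 0, 1 and 0 of all genes.

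The direct comparison of siTotal with siLong, which uses neither control, called 8 members, 5 higher and 3 lower, where 53.4% of genes were called (28.1% higher and 25.3% lower). The members' median was 0.09, beside 0.011 for all genes. Higher in siTotal were TUBA4A by 0.89 log2 (SE 0.03, adjusted p = 6.2e-22), TUBB4B by 0.52 log2 (adjusted p = 8.3e-17), TUBA1B by 0.44 log2 (adjusted p = 2.6e-14), TUBB by 0.19 log2 (adjusted p = 2.7e-06) and TUBA1C by 0.10 log2 (adjusted p = 0.0082). The TUBA1C call was lost without siTotal1 replicate 1, siTotal2 replicate 1, siLong1 replicate 2 or siLong2 replicate 1 (adjusted p = 0.11, 0.091, 0.063 and 0.091). TUBA1A was lower in siTotal by a log2 fold change of -0.51 (adjusted p = 2.4e-12), TUBB3 by -0.39 (adjusted p = 5.7e-04) and TUBB6 by -0.20 (adjusted p = 1.9e-06). For TUBA1A, TUBB6 and TUBA1C single groups went against these means. TUBA1A was higher in siTotal2 (95.1 and 87.7 CPM) than in siLong1 (54.2 and 56.9 CPM). TUBB6 was higher in siTotal1 (160.2 and 151 CPM) than in siLong1 (141 and 137 CPM). TUBA1C was lower in siTotal2 (619 and 586 CPM) than in the libraries labelled siLong2 (662 and 689 CPM). For TUBA4A, TUBB4B, TUBA1B, TUBB and TUBB3 the siTotal and siLong libraries did not overlap. TUBB2A (0.08) and TUBB2B (0.08) did not pass the test (adjusted p = 0.1 and 0.71).

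The controls themselves differed: mock against siControl called 8 members, 2 higher and 6 lower, where 39.8% of genes were called (19.5% higher and 20.3% lower), and the members' median was -0.16 beside 0.007. TUBB2B stood lower in mock by -0.75 log2 (adjusted p = 0.0039), TUBB2A by -0.47 (adjusted p = 1.4e-08), TUBA4A by -0.31 (adjusted p = 8.3e-07), TUBB6 by -0.28 (adjusted p = 2.9e-06), TUBA1A by -0.19 (adjusted p = 0.01) and TUBA1C by -0.13 (adjusted p = 0.02). TUBB3 was higher in mock by 0.47 log2 (adjusted p = 0.0049) and TUBB by 0.22. TUBA1B (-0.03) and TUBB4B (-0.04) were not called (adjusted p = 0.61 and 0.52). The count fell to 5 without mock replicate 1, when TUBA1A, TUBA1C and TUBB3 were lost (adjusted p = 0.23, 0.06 and 0.2). TUBB2B was lost without mock replicate 2 (adjusted p = 0.11) and TUBB3 also without siControl replicate 1 (adjusted p = 0.097). TUBA1A was also lost without siControl replicate 2 (adjusted p = 0.069), and TUBA1C without mock replicate 2, siControl replicate 1 or siControl replicate 2 (adjusted p = 0.094, 0.17 and 0.057).

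**Figure D3:**
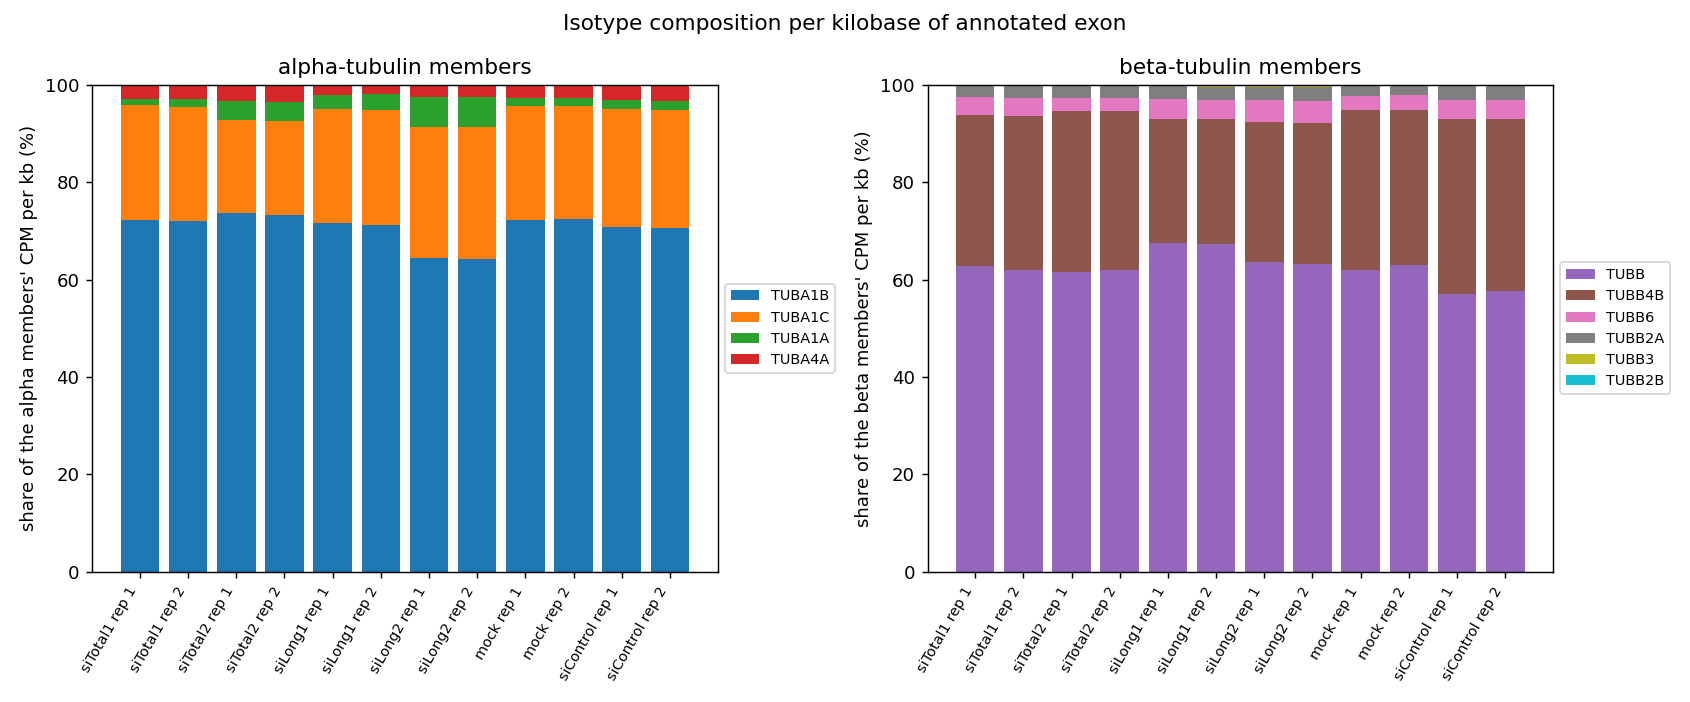
Share (vertical axis, %) of each alpha member in the summed CPM per kb of the 4 alpha members (left) and of each beta member in that of the 6 beta members (right), 1 bar per library. TUBA1B and TUBA1C make up most of the alpha bars and TUBB and TUBB4B most of the beta bars; the TUBA1A segment is widest in the libraries labelled siLong2 and the TUBB4B segment narrowest in siLong1.

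Isotype composition followed from these changes. Shares are of the summed CPM per kb of exon within a family and are given with no test, since they are fixed by the levels above. TUBA1A made up 1.35% and 1.64% of the alpha level in siTotal1, 3.96% and 3.93% in siTotal2, 2.93% and 3.17% in siLong1 and 6.18% and 6.29% in the libraries labelled siLong2, against 1.52% and 1.72% in mock and 1.72% and 1.81% in siControl. TUBA1B kept the bulk of the alpha level in every library, at 64.5% and 64.2% in the libraries labelled siLong2 and at 70.7% to 73.7% in the other 10. TUBA1C was at 19% and 19.4% in siTotal2 and at 26.8% and 27.1% in the libraries labelled siLong2, against 23.4% and 23.2% in mock and 24.3% and 24.2% in siControl. On the beta side TUBB4B made up 25.5% in both siLong1 libraries and 28.6% and 29% in those labelled siLong2, against 32.9% and 31.9% in mock and 35.8% and 35.4% in siControl. TUBB held 67.5% and 67.4% in siLong1, against 61.9% and 63% in mock and 57.1% and 57.6% in siControl. Thus TUBB took a larger share in siLong1 while its own level there, 1882 and 1869 CPM, was the lowest of the 6 groups.

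Together the 10 genes took 0.574% and 0.541% of library reads in siTotal1, 0.608% and 0.574% in siTotal2, 0.454% and 0.448% in siLong1 and 0.489% and 0.498% in the libraries labelled siLong2, against 0.592% and 0.586% in mock and 0.588% and 0.561% in siControl. The 4 siLong libraries were the lowest 4, and the siTotal libraries overlapped the controls. With 2 libraries a group the share was described and not tested. The 4 alpha genes accounted for 0.202% ± 0.0037 of reads in siLong1 and 0.208% ± 0.0022 in those labelled siLong2, against 0.26% ± 0.004 in mock and 0.273% ± 0.0081 in siControl (SD, n = 2 each). The 6 beta genes accounted for 0.249% in siLong1 and 0.285% in those labelled siLong2, against 0.329% in mock and 0.301% in siControl.

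**Figure D4:**
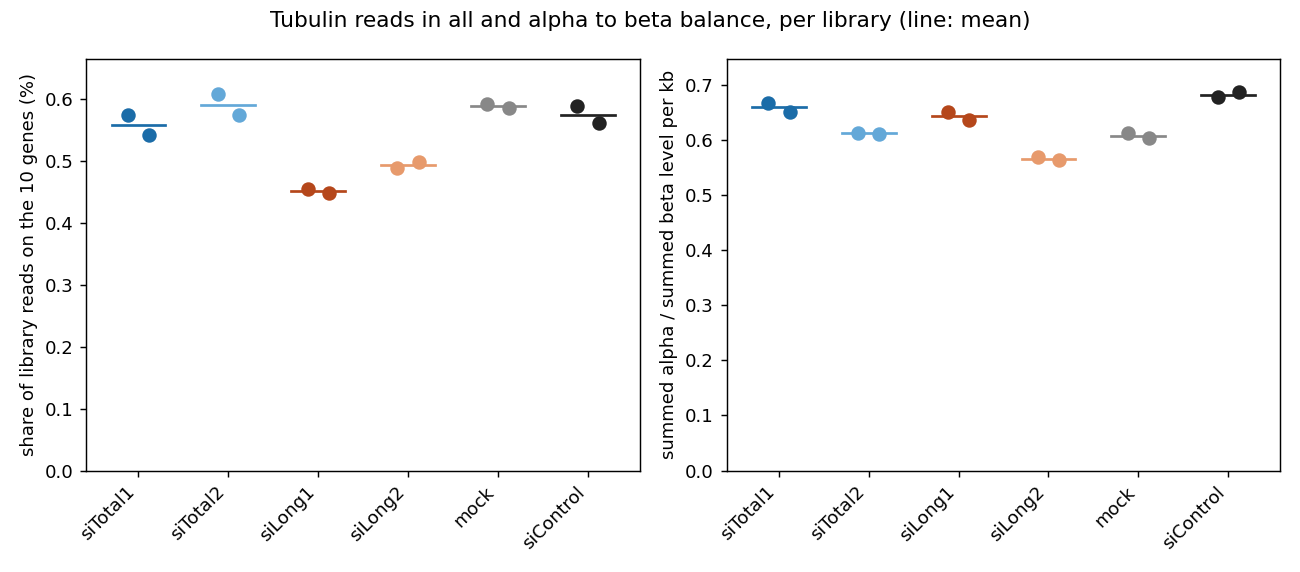
Left, share of each library's reads on the 10 tubulin genes (%). Right, ratio of the summed alpha to the summed beta level per kb of exon. Points are libraries, lines are means of 2, and both axes start at 0. The siLong libraries are lowest on the left (0.448% to 0.498%), and those labelled siLong2 are lowest on the right (0.568 and 0.564).

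The ratio of summed alpha to summed beta level per kb of exon was 0.667 and 0.651 in siTotal1, 0.612 and 0.611 in siTotal2, 0.65 and 0.636 in siLong1 and 0.568 and 0.564 in the libraries labelled siLong2, against 0.612 and 0.603 in mock and 0.678 and 0.686 in siControl. The siTotal and siLong1 ratios lay between or at those of the controls, and the ratio in the libraries labelled siLong2 lay below both. The absolute ratio depends on the length taken for each gene: per kb of longest coding transcript it ran from 0.905 in a library labelled siLong2 to 1.12 in a siControl library.

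Other genes of the tubulin pathway were read from lists, described by counts beside the background shares given above. Of 9 alpha and beta tubulin genes outside the 10, 4 had enough reads, and TUBB4A, a neuronal beta isotype, was the only one called in either siRNA mean against siControl. It had 36.2 and 40.9 CPM in siTotal1, 62.7 and 58.8 CPM in siTotal2, 57.7 and 62.1 CPM in siLong1 and 53.4 and 55.2 CPM in the libraries labelled siLong2, against 56.6 and 58.5 CPM in mock and 31.9 and 32 CPM in siControl. Its rise of 0.84 log2 in siLong against siControl (adjusted p = 2.1e-16) had no counterpart against mock (-0.01, adjusted p = 0.85), since mock itself was 0.85 log2 above siControl (adjusted p = 6.8e-15). In siTotal it stood 0.60 log2 above siControl (adjusted p = 3.7e-12) and was lower than mock (-0.25, adjusted p = 7.0e-05).

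Of 12 tested genes for gamma-, delta- and epsilon-tubulin and the gamma-tubulin ring complex, which nucleates microtubules, 5 fell and 1 rose in siLong against siControl, where 53.5% of all genes were called, with a median of -0.14. TUBG1, gamma-tubulin itself, had 115 and 113 CPM in siLong1 and 95.3 and 99.9 CPM in the libraries labelled siLong2, against 151 and 151 CPM in mock and 159 and 158 CPM in siControl. Its log2 fold change in siLong was -0.59 against siControl (adjusted p = 8.0e-17) and -0.52 against mock (adjusted p = 3.6e-15), and it was not called in siTotal against either (adjusted p = 0.32 and 0.61). The ring complex subunits TUBGCP3 (-0.79 against siControl and -0.55 against mock) and TUBGCP4 (-0.51 and -0.40) fell in siLong against both controls. The minor tubulin TUBE1 was lower in siLong than in siControl (-0.49, adjusted p = 1.9e-09) and was not called against mock (-0.09, adjusted p = 0.18), which was itself below siControl (-0.40, adjusted p = 3.1e-06). Of the siLong groups, only the libraries labelled siLong2 had TUBE1 called lower than both controls. In siTotal against siControl 4 of the 12 fell and 1 rose, where 44.2% of genes were called. TUBE1 (-0.64 against siControl and -0.24 against mock), TUBGCP3 (-0.37 and -0.13) and the ring complex adaptor NEDD1 (-0.36 and -0.33) fell against both controls. By single siRNA, NEDD1 was called lower than both controls in siTotal1 alone, and TUBE1 and TUBGCP3 in siTotal2 alone. The small component MZT2A rose against siControl (0.23) and was at -0.16 against mock (adjusted p = 0.15).

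Few of the genes that fold tubulin kept their direction against both controls, where 14.2% of all genes did in siTotal and 31.6% in siLong. Against siControl alone, 44.2% of all genes were called in siTotal and 53.5% in siLong. Of the 8 subunits of CCT, the chaperonin that folds tubulin and actin, none rose and 2 fell in siTotal (CCT8 -0.13, CCT6A -0.10) and 2 in siLong (CCT7 -0.15, CCT6A -0.11) against siControl, and only CCT7 in siLong was also called against mock (-0.13). The siLong mean joined unlike groups here: siLong1 had 6 of the 8 lower and none higher than siControl, with a median of -0.13, and the libraries labelled siLong2 had 3 higher and none lower, with a median of 0.04. Of the 6 prefoldin subunits, which hand tubulin to CCT, 3 fell in siTotal (PFDN2 -0.38, PFDN4 -0.30, PFDN6 -0.11) and 4 in siLong (PFDN1 -0.24, PFDN4 -0.24, PFDN5 -0.21, VBP1 -0.17) against siControl. PFDN2 in siTotal was the only one of these called against mock as well (-0.17), and 4 of the 6 were lower in mock than in siControl. Of the siTotal siRNAs, siTotal1 alone had PFDN2 called lower than both controls. Of 6 tested tubulin folding cofactors and partners, 1 rose and 2 fell in siTotal and 2 rose and 3 fell in siLong against siControl. TBCD was called in opposite directions against the controls, at 0.30 against siControl and -0.23 against mock in siTotal and at 0.16 and -0.37 in siLong, since mock stood 0.54 log2 above siControl (adjusted p = 2.1e-13). The small GTPase ARL2 was lower than both controls in both means (-0.19 and -0.46 in siTotal, -0.20 and -0.47 in siLong). These means came from siTotal2 (-0.66 against siControl) and the libraries labelled siLong2 (-0.48), with siTotal1 at 0.29 (adjusted p = 0.0054) and siLong1 at 0.09 (adjusted p = 0.43). TBCA fell in siLong against siControl and mock (-0.12 and -0.15), a fall called against both in siLong1 and not in the libraries labelled siLong2. TBCC in siTotal (-0.27) was not called against mock (adjusted p = 0.52). TBCEL in siLong (-0.21 against siControl) averaged opposite calls, -0.65 in siLong1 and 0.23 in those labelled siLong2.

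Of the 5 genes listed for autoregulation 4 fell in siTotal and 3 in siLong against siControl. In these comparisons 44.2% and 53.5% of all genes were called (22.2% and 28.4% lower). Mock was also lower than siControl for 2 of the 5. In siLong1 4 of the 5 (CNOT1, CNOT11, CNOT7 and TTC5) were called lower than both controls, where 35.5% of all genes kept a direction against both. In the libraries labelled siLong2 none of the 5 was called in the same direction against both controls. TTC5, the ribosome-bound reader, had 27.5 and 25.4 CPM in siTotal1, 25.5 and 24.2 CPM in siTotal2, 22.7 and 22.1 CPM in siLong1 and 25.1 and 25.6 CPM in the libraries labelled siLong2, against 25.3 and 25.6 CPM in mock and 32.1 and 32.7 CPM in siControl. It was lower than siControl in siTotal (-0.34, adjusted p = 1.6e-06), in siLong (-0.44, adjusted p = 5.1e-09) and also in mock (-0.35, adjusted p = 1.2e-05), and neither mean was called against mock (adjusted p = 0.91 and 0.13). In siLong1 alone TTC5 was called lower than mock (-0.19, adjusted p = 0.012 in edgeR's test). CNOT7, a deadenylase of the CCR4-NOT complex, had log2 fold changes of -0.47 against siControl and -0.26 against mock in siLong, and of -0.24 and -0.03 in siTotal, the last not called (adjusted p = 0.62). The fall against mock came from siLong1 (-0.50, adjusted p = 9.2e-12), with the libraries labelled siLong2 at -0.02 (adjusted p = 0.7). The CCR4-NOT subunit CNOT11 was lower than both controls in siTotal (-0.12 and -0.15) and in siLong (-0.14 and -0.17, with siLong2 as labelled at 0.01 against siControl), and CNOT1 in siTotal (-0.09 and -0.15). Of the siTotal siRNAs, siTotal1 alone had CNOT11 and CNOT1 called lower than both controls.

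Of 19 tested enzymes that modify tubulin, 8 rose and 5 fell in siTotal, where 44.2% of all genes were called, and 6 rose and 5 fell in siLong, where 53.5% were, against siControl. Called in the same direction against both controls were 3 higher and 3 lower in siTotal and 1 higher and 5 lower in siLong, where 14.2% and 31.6% of all genes were. VASH2, which removes the terminal tyrosine of alpha-tubulin together with SVBP, was higher than siControl in siTotal (1.95, adjusted p = 9.6e-17), in siLong (1.64, adjusted p = 1.2e-14) and in mock (2.14, adjusted p = 5.8e-17). Against mock it was at -0.20 in siTotal (adjusted p = 0.067) and lower in siLong (-0.51, adjusted p = 4.1e-06). SVBP rose in siTotal against both controls (0.68 and 0.36). By single siRNA it was called higher than both controls in siTotal1 and not in siTotal2. The polyglutamylase TTLL4 fell in siLong against both controls (-0.65 and -0.27). Against siControl the polyglutamylase TTLL6 (0.91 in siTotal and 1.04 in siLong) and the glycylase TTLL3 (1.03 in siLong) rose and the deacetylase SIRT2 fell in siTotal (-0.47), and none of these passed the test against mock (adjusted p = 0.72, 0.37, 0.23 and 0.61). In siLong1 alone TTLL6 was called higher than both controls.

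Of 26 tested microtubule-associated, end-binding, severing and destabilizing proteins, 9 rose and 9 fell in siTotal, and 5 rose and 10 fell in siLong, against siControl. In these comparisons 44.2% and 53.5% of all genes were called. Called in the same direction against both controls were 2 higher and none lower in siTotal and 3 higher and 6 lower in siLong, where 14.2% and 31.6% of all genes were. MAP2, which binds along microtubules, rose in siTotal (0.59 against siControl and 0.78 against mock), mainly in siTotal2 (1.07 against siControl, where siTotal1 was at 0.11, adjusted p = 0.33). It was also among the 3 higher in siLong, a mean that describes neither siLong group. MAP2 was called lower than both controls in siLong1 and higher than both in the libraries labelled siLong2. The stathmin STMN3 rose (0.99 and 0.56) and the depolymerizing kinesin KIF2C fell (-0.74 and -0.36) in siLong against both controls, and in each siLong group. MAP1A (0.80), the plus-end protein CLIP1 (-0.54) and the kinesin-1 partner MAP7 (-0.51) were called in siTotal against siControl and not against mock (adjusted p = 0.09, 0.3 and 0.083). The severing protein KATNAL1 (-0.54) and the end-binding protein MAPRE3 (-0.50) were likewise called in siLong against siControl and not against mock (adjusted p = 0.25 and 0.73). The other NF-Y subunits, NFYB (0.77 and 0.72) and NFYC (0.72 and 0.65), rose in siTotal against siControl and mock, and with each siTotal siRNA. NFYB was lower in the libraries labelled siLong2 than in siControl (-0.48, adjusted p = 3.0e-08) and was not called in siLong1 (0.08, adjusted p = 0.3), so that the siLong mean of -0.20 describes neither.

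The genes whose log2 CPM was most like that of the most abundant members over the 12 libraries were found among 10040 named genes with an average log2 CPM of at least 3. For TUBA1B these were DYNC2I2 (Pearson r = 0.986), HPRT1 (0.985) and RBM12 (0.985), where the median r over all genes was 0.03. For TUBB they were ZNF318 (0.948), ZRANB3 (0.947) and ZIC2 (0.942), where the median was -0.01. The points are 12 libraries in 6 groups, which share the differences between groups, and the values are descriptions with no test.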

How the data were processed

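The authors deposited unnormalized whole-number counts for 63677 Ensembl genes in 12 libraries of HCT116 cells. Per the submitters' processing notes the authors used STAR 2.4.0f1, featureCounts and hg19; the sources used here give neither annotation release nor strand setting. Genes were kept with edgeR's filterByExpr (minimum count 10, minimum total 15), TMM-scaled, and tested with a robust quasi-likelihood model of the 6 groups in edgeR 4.0.16 under R 4.3.3 (6 residual degrees of freedom; the common biological coefficient of variation was 3.57%). A mean such as siTotal averages its siRNA groups. Benjamini-Hochberg adjustment ran over 17730 genes and calls were made at 0.05. The script was tested on simulated counts. No library was a repeat deposit of another, since replicates differed beyond counting noise (chi-square per degree of freedom 1.87 to 7.89). Symbols were found for 52181 identifiers. Positions and coding sequences are from GENCODE 29 (GRCh38), promoters from RefSeq (GRCh38.p14), all matched by identifier or symbol and not converted from hg19; all 10 genes matched. Alternatives were median-ratio scaling, no filter, DESeq2 1.42.0, a replicate block, leaving out each library, 1 pooled control and siRNA sequences as replicates. All 10 members are named; from each pathway list up to 4 called genes per comparison with the largest change, from siTotal and siLong against siControl, and the 3 genes most alike. The members and lists were chosen with earlier results of these data known.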

Additional observations from a re-analysis of the deposited data

Results flagged for a closer look

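The effects of the pair of siRNAs to one target differed for most members, by edgeR's test of the difference itself. For siTotal1 against siTotal2 this held for 7 members, where 43.9% of tested genes were called. The log2 fold changes were -1.39 for TUBA1A (adjusted p = 1.6e-18), -0.47 for TUBB3, -0.20 for TUBA4A, -0.17 for TUBB2A and -0.16 for TUBB4B, and 0.36 for TUBB6 (adjusted p = 3.0e-08) and 0.30 for TUBA1C (adjusted p = 4.5e-07). The TUBA1A libraries show it without overlap, at 33 and 36.6 CPM in siTotal1 and 95.1 and 87.7 CPM in siTotal2. The call was lost for TUBB2A without siTotal1 replicate 2 or siTotal2 replicate 1, for TUBB3 without siTotal1 replicate 1 or siTotal2 replicate 2, and for TUBB4B without siTotal2 replicate 1.

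For siLong1 against the libraries labelled siLong2 it held for 9 members, where 53.7% of genes were called. TUBA1A differed by -1.05 log2 (adjusted p = 1.3e-16), TUBB2B by -0.62, TUBB4B by -0.38 (adjusted p = 1.5e-09), TUBA4A by -0.37 (adjusted p = 7.3e-08), TUBB6 by -0.36 (adjusted p = 1.4e-08), TUBB2A by -0.34, TUBA1C by -0.22, TUBB by -0.12 and TUBA1B by 0.13. The calls of TUBA1B, TUBB and TUBB2B were lost when some single siLong libraries were left out, and that of TUBB2B also in DESeq2 (adjusted p = 0.091). The direction against siControl was the same in siLong1 and siLong2 for TUBA1A, TUBA1B, TUBA1C, TUBA4A and TUBB4B, so these differences are of size.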

How the results depend on the processing

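The values for single genes numbered 129. They were all values of the 6 main comparisons (the siRNA means and mock) and, for single siRNAs, only the values called in the fit reported. A call gained for an uncalled single-siRNA value could therefore not appear. Median-ratio factors in place of TMM kept direction and call in 126 of them, no filter on low counts in 128, and DESeq2 in 120, and the rest lost their call. The replicate block changed 0 of the 129; the numbers are not known to pair samples, since deviations of same-numbered libraries correlated between -0.29 and 0.34 over 15 pairs of groups, with 6 above 0.1. Leaving out a library gave 1452 values that kept direction and call, 81 that lost and 4 that gained a call, and 11 of the opposite sign. Members called in siTotal against siControl (8) became 2 with mock and siControl as 1 control group, 5 to 8 with a library left out and 0 with each siRNA sequence as 1 replicate. In siLong against siControl (9) and siTotal against siLong (8) that last setting also gave 0, with adjusted p from 0.29 to 0.95 and from 0.43 to 0.98, on fewer samples. Mock against siControl (8) gave 5 to 8 with a library left out. With 1 control group the signs turned in siTotal for TUBA1B (0.0023), TUBA4A (0.08) and TUBB2A (0.01) and in siLong for TUBB6 (0.04), and with siRNA sequences as replicates for TUBA4A (0.08), TUBB2A (0.01) and TUBB6 (0.05); against mock these values were above 0 in the fit reported. With a library left out the values that changed sign, none of them called, were TUBA1B in siTotal against siControl (-0.06 to 0.01) and against mock (-0.03 to 0.04), TUBB3 (-0.18 to 0.20) and TUBB6 (-0.06 to 0.01) in siTotal against mock, and TUBB2B in siLong against mock (-0.05 to 0.56) and in siTotal against siLong (-0.03 to 0.17). Without mitochondrially encoded genes in the total, and over tested genes, the share of reads on the 10 genes was 0.584% in siTotal1, 0.626% in siTotal2, 0.478% in siLong1 and 0.529% in those labelled siLong2, against 0.616% in mock and 0.601% in siControl. With other tubulin genes and pseudogenes added it was 0.459% for siLong1 and 0.501% for siLong2 as labelled, against 0.598% in mock. Depth limits TUBB2B most, at 38 to 82 reads.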
